A study of Homo sapiens with 6 samples.

Results

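The cells described here are the wild-type reference of a study of Dicer, the nuclease that trims microRNA hairpins, in the H1 line of human embryonic stem cells. They were taken as the libraries labelled wild-type, which are 2 of the 6 in the series. The other 4 came from H1 cells with the S1344L substitution of Dicer, hemizygous or homozygous, and no genotypes are compared here. All cells had been kept off doxycycline for 10 days, and each sample used 2 confluent dishes of 15 cm. Dishes were irradiated 2 times with 254 nm light at 150 mJ/cm2 so that proteins became fixed to RNA. RNA was then recovered with an antibody to Ago2 and sequenced by iCLIP. The labels do not say whether the wild-type libraries came from separate cultures, or whether the wild-type cells were a clone, so the spread between them may be technical.

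Embryonic stem cells of the primed kind, such as H1, resemble the epiblast of the embryo shortly before gastrulation. They divide quickly with a short first gap phase, rely heavily on glycolysis, and hold lineage genes ready but largely silent. A circuit of transcription factors around POU5F1, SOX2 and NANOG keeps that state, and FGF and Activin or Nodal signals feed it. MicroRNAs of the miR-302 family are known for their abundance in these cells. Ago2 carries microRNAs to their targets, so a library of its bound RNA could follow binding, transcript level or both. The table does not tell these apart, and values here are levels of counts in such libraries.

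The table held 16199 rows, one per gene, with 52.9 M counts in replicate 1 and 38.2 M in replicate 2. Levels are given as counts divided by the library's own total and multiplied by 1000000 (CPM), and where 2 values stand together the first is replicate 1 and the second replicate 2. Longer transcripts collect more counts, so the CPM of different genes do not rank their abundance. Spliced transcript lengths were not used here, and genes are ranked per length only where the gene has no intron. A gene was called high at a mean of at least 100 CPM and near absent at a mean under 1 CPM. At 1 CPM the libraries held 53 and 38 counts, and the exact Poisson 95% intervals ran from 0.750 to 1.31 CPM and from 0.705 to 1.37 CPM. These intervals cover counting error only. A gene without a row is written as such and is not read as silent, since the lowest total of a row over the 6 libraries was 132 counts.

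A small set of rows carried much of the counts. The median row stood at 18.8 and 19.7 CPM. Of the 16199 rows, 2235 were high, or 13.8%, and they took 67.3% of the counts. Another 1158 rows, 7.15%, were near absent and took 0.0893%. The 77 rows at 1000 CPM or more took 18.5%. The first 1000 rows of each library took 51.1% and 50.9%. The plot of cumulative shares shows that the libraries had nearly the same shape.

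**Figure D1:**
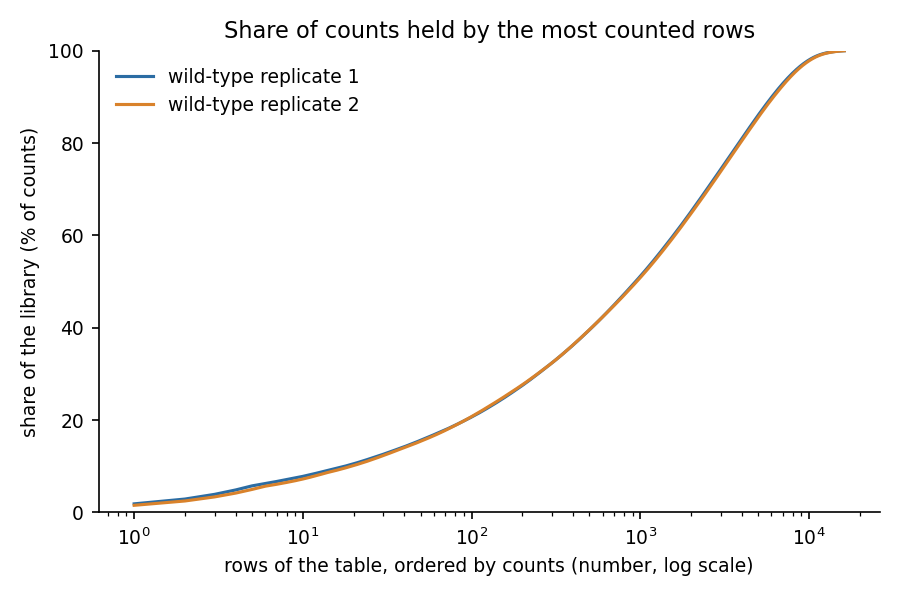
Cumulative share of counts (percent of the library) against the number of rows taken in order of their counts (log scale), 1 line per wild-type library. The lines run together, and the first 1000 rows reach 51.1% in replicate 1 and 50.9% in replicate 2.

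Among the 20 rows with the most counts, 9 were encoded by the mitochondrial genome, and the 20 together took 10.3% of the counts. The most counted nuclear gene was EEF1A1, the factor that brings charged tRNA to the ribosome, at 9795 ± 561 CPM (SD, n = 2). EEF2, which moves the ribosome along the message, stood at 3455 and 4088 CPM. The actins ACTG1 and ACTB, main proteins of the cytoskeleton, stood at 3457 and 3934 CPM for ACTG1 and at 3261 and 3259 CPM for ACTB. The chaperone HSP90AB1 stood at 3518 and 3728 CPM and GAPDH, a glycolytic enzyme, at 2768 and 3644 CPM. Ribosomal proteins RPL3 and RPL4 and the nucleolar protein NPM1 followed, with NPM1 at 2157 and 2536 CPM. The remaining places went to PODXL, a surface sialomucin of stem cells, at 2434 and 2315 CPM, and DNMT3B, a de novo DNA methyltransferase, at 2403 and 2209 CPM. Housekeeping genes and genes typical of pluripotent cells stood side by side at the head of the table.

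Sorted by symbol into 20 functional classes, 3118 rows took 41.8% of the counts, and other protein-coding rows took most of the rest. Mitochondrially encoded RNAs were the class with the largest share, 7.32% and 6.72% from 21 rows. Cytosolic ribosomal proteins followed with 5.30% and 6.14% from 84 rows, of which 72 were high, where 13.8% of all rows were. Both shares moved between libraries, and the ranges of these 2 classes did not overlap. RNA-processing proteins (hnRNPs, SR proteins, spliceosome) took 3.34% ± 0.0559 (SD, n = 2), the cytoskeleton 2.96% ± 0.0356 (SD, n = 2), translation factors 2.86% ± 0.0415 (SD, n = 2) and chaperones 2.52% ± 0.117 (SD, n = 2). The exact binomial 95% interval of any class share reached at most 0.0158 percentage points to either side, which covers counting error only. Because classes follow the start of the symbol, 307 pseudogene and long noncoding rows are counted with their families, with 0.257% of the counts.

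**Figure D2:**
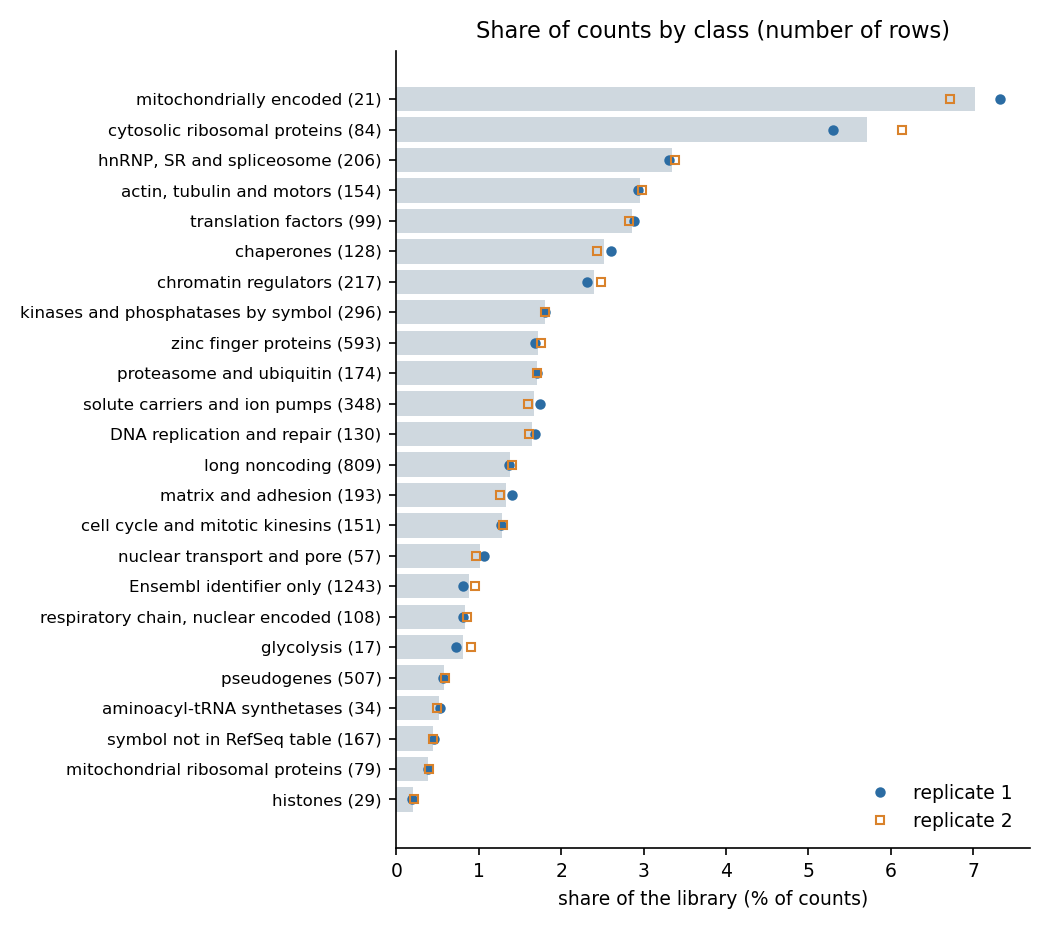
Share of counts (percent of the library) by functional class, with the number of rows in parentheses. Bars are the mean of the 2 wild-type libraries and points the single libraries. Mitochondrially encoded RNAs (7.02%) and cytosolic ribosomal proteins (5.72%) stand above the other classes drawn. The remaining protein-coding rows (55.0%) and small noncoding rows are not drawn.

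Mitochondrial genes have no introns, so their levels can be set per kilobase of gene. On that scale the 3 mitochondrial subunits of cytochrome c oxidase, the last enzyme of the respiratory chain, came first. MT-CO2 stood at 12866 and 11597 CPM per kilobase, MT-CO1 at 12049.5 and 10000.4 and MT-CO3 at 12195 and 9019. Their ranges overlapped, although MT-CO2 was highest in both libraries. MT-ND4 and MT-ATP6, subunits of complex I and of the ATP synthase, followed at 7549.7 and 6417 and at 6385 and 5479.6 CPM per kilobase. The message MT-ND6, the only one read from the light strand, was lowest of the messages at 1087 and 948. The ribosomal RNA MT-RNR2 stood at 5162 and 8258 CPM. MT-RNR1, the other mitochondrial ribosomal RNA, stood at 836 and 1024 CPM. Transfer RNA rows were few and low, led by MT-TP at 8.96 and 12.2 CPM.

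The machinery of translation spanned several classes. High were 72 of 84 ribosomal protein rows, 37 of 99 translation factor rows and 16 of 34 synthetase rows, where 13.8% of all rows were. Ribosomal proteins, translation factors and aminoacyl-tRNA synthetases together took 9.08% of the counts. RPL3 stood at 2232 and 2632 CPM, RPL4 at 2255 and 2512 CPM and RPS2 at 1721 and 2214 CPM. Of the 84 ribosomal protein rows, 9 were higher in replicate 1 and the rest in replicate 2. Of all rows, 43.8% were higher in replicate 1 and 56.2% in replicate 2. PABPC1, which coats poly(A) tails, stood at 2009 and 2217 CPM. The synthetases LARS1, IARS1 and AARS1, which charge leucine, isoleucine and alanine tRNA, stood at 497 and 457 CPM for LARS1, at 482 and 387 CPM for IARS1 and at 403 and 405 CPM for AARS1. Mitochondrial ribosomal proteins took 0.381% and 0.395% from 79 rows, led by MRPL3 at 183 and 165 CPM, MRPL42 at 155 and 173 CPM and MRPS27 at 134 and 139 CPM.

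Messages of this machinery are known for a 5′ terminal oligopyrimidine tract, a C at the first base followed by a run of C and T, through which mTOR signalling controls their translation. RefSeq start sites (GRCh38.p14) show how common the tract was among the most counted rows. A tract was scored as a C at the start followed by at least 4 bases that are C or T, on the sense strand. It was found in 43 of 67 ribosomal protein rows with a sequence, or 64.2%, and in 11 of 61 translation factor rows. Of all 27305 start sites in the table of sequences, 4.04% held it, and of the 11412 rows with a sequence 5.16% did. The share was 31.5% of 54 rows at 1000 CPM or more and 10.1% of 1820 high rows. It was 4.26% of 9110 rows from 1 to 100 CPM and 3.53% of 482 near absent rows. The upper bands include ribosomal protein rows, and shares without that class were not computed. The windows below run from 20 bases before the start to 10 after it and are shown for the 2 most counted ribosomal protein rows, 3 further ones that carry the tract, and leaders of other classes. Capitals mark the tract where it was found.
EEF1A1: cagtagtcgccgtgaacgttCTTTTTCgca
EEF2: tgagtgttgacgtcagcgttCTCTTCCgcc
RPLP0: ggcacgcgcgggcgcgaggcCCTTCTCTCg
RPL13A: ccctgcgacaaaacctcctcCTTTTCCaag
RPS3: cttccgcccgcgagccacttCCTTTCCTTT
RPL3: gacccgtaaggccgaccggcctctaccggc
RPL4: acatatacagcgggagtggtaagcacttcc
HSP90AB1: gtcccccccgcaggtactccactctcagtc
GAPDH: tgcgcagcgggtgcatccctgtccggatgc
ACTG1: cgggggaggccgcggtcggtctcagtcgcc

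EEF1A1 (chr6:73521023-73521052, minus strand), EEF2 (chr19:3985454-3985483, minus strand), RPLP0 (chr12:120201102-120201131, minus strand), RPL13A (chr19:49487588-49487617, plus strand) and RPS3 (chr11:75399498-75399527, plus strand) begin with the tract. RPL3 (chr22:39319614-39319643, minus strand) and RPL4 (chr15:66504846-66504875, minus strand), the ribosomal protein rows with the most counts, do not begin with it at the RefSeq start. The same holds for the chaperone HSP90AB1 (chr6:44246174-44246203, plus strand), for GAPDH (chr12:6535244-6535273, plus strand) and for the actin ACTG1 (chr17:81512790-81512819, minus strand). RPLP0 stood at 1805 and 2020.4 CPM, RPL13A at 1502 and 1856 CPM and RPS3 at 1501 and 1786 CPM. A missing match says only that these letters are not at the annotated base.

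RNA-binding and chromatin proteins came next. HNRNPA1 and HNRNPA2B1, which bind nascent RNA and steer splicing, stood at 2255 and 2356 CPM for HNRNPA1 and at 1986 and 2117 CPM for HNRNPA2B1, and the speckle scaffold SRRM2 at 1097 and 1466 CPM. Of 206 rows in the class, 84 were high, where 13.8% of all rows were. Chromatin regulators took 2.32% and 2.48%, led by HMGA1, an architectural protein of proliferating embryonic cells, at 1894 and 2457 CPM. The histone chaperone NAP1L1 stood at 1245 and 1126 CPM and the corepressor TRIM28, which silences retroelements, at 811 and 938 CPM. Zinc finger genes were the class with the most rows, 593, but took only 1.69% and 1.75%, and 26 of them were high. ZNF770 led them at 427 and 346 CPM, with ZNF121 at 288 and 404 CPM and ZBTB44 at 279.6 and 298 CPM.

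The cytoskeleton was led, after the actins, by the crosslinker FLNA at 1684 and 1481 CPM. HSP90AA1 and HSPA8, cytosolic chaperones, stood at 2402 and 1858 CPM for HSP90AA1 and at 1779 and 1194 CPM for HSPA8. In the class of protein breakdown, which took 1.71% and 1.71%, the deubiquitinase USP9X stood at 767 and 814 CPM and the ubiquitin-activating enzyme UBA1 at 541 and 593 CPM. Nuclear transport, a class of 57 rows with a median of 123 CPM against 19.4 CPM over all rows, was led by the importin KPNA2 at 768 and 855 CPM, with IPO7 at 775 and 699.6 CPM and the GTPase RAN at 694 and 703 CPM. Genes of DNA replication and repair took 1.69% and 1.61%. Besides DNMT3B, which the class takes in by its symbol, PARP1 stood at 874 and 991 CPM and XRCC5, a Ku subunit of end joining, at 863 and 885 CPM. Solute carriers and pumps took 1.75% and 1.60%, led by the glucose transporter SLC2A3 at 855 and 786 CPM, the amino acid transporter SLC38A2 at 698 and 516 CPM and the mitochondrial phosphate carrier SLC25A3 at 536 and 544 CPM. Kinase and phosphatase rows took 1.81% and 1.81%, with PPP1CC at 558 and 634 CPM, PTPRZ1 at 514 and 431 CPM and PTPRF at 389 and 429 CPM.

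The markers of human embryonic stem cells were present throughout. All 25 genes of the core pluripotency list had a row, 17 of them were high, or 68% against 13.8% of all rows, and 0 were near absent. The list was chosen with earlier results of these data known, so these shares describe it and test nothing. The list median was 242 and 239 CPM, where all rows had 18.8 and 19.7. No member differed by 2-fold or more between the libraries, where 5.79% of all rows and 0.626% of high rows did. SOX2, which acts as a partner of POU5F1, stood at 334 and 388 CPM. NANOG, a homeobox factor of the core circuit, stood at 194 and 146 CPM and POU5F1, the factor also known as OCT4, at 86.2 and 90.1 CPM. Both have near-identical copies whose rows also took counts. POU5F1B stood at 82.8 and 87.4 CPM, POU5F1P3 at 78.0 and 79.5 CPM and POU5F1P4 at 7.52 and 8.59 CPM, so the copies of POU5F1 together held more counts than POU5F1 itself. NANOGP8 stood at 44.9 and 26.0 CPM and NANOGP1 at 4.48 and 3.01 CPM. The split of reads between parent and copy is uncertain, and so is the level of either parent. SALL4, a zinc finger regulator that binds AT-rich DNA, stood at 230.1 and 239 CPM and PRDM14, a repressor of the same circuit, at 56.2 and 54.1 CPM.

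RNA-binding proteins and a noncoding RNA were among the most counted members of the list. LIN28A, which blocks maturation of let-7 microRNAs, stood at 1594 and 2173 CPM and its paralog LIN28B at 248 and 187 CPM. TRIM71, a translational repressor and let-7 target, stood at 731 and 829 CPM. L1TD1, an RNA-binding protein derived from a retrotransposon, stood at 789 and 742 CPM. ESRG, a long noncoding RNA driven by an endogenous retrovirus, stood at 2099 and 2388 CPM, the second most counted long noncoding row. LNCPRESS1, a noncoding RNA under p53 control, stood at 46.8 and 56.4 CPM.

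Chromatin and telomere genes of the list were also high in part. DPPA4, a chromatin-bound protein of pluripotent cells, stood at 1449 and 1318 CPM and its partner DPPA2 at 34.7 and 36.1 CPM. JARID2, a subunit of Polycomb complex 2, stood at 668 and 719 CPM. TERF1, which coats telomere repeats, stood at 732 and 754 CPM, and TERT, the catalytic subunit of telomerase, at 23.3 and 39.0 CPM. TDGF1, the Nodal co-receptor also called CRIPTO, stood at 729.6 and 651 CPM, with 24.1 and 20.9 CPM in its pseudogene TDGF1P3. POLR3G, an isoform-specific subunit of RNA polymerase III, stood at 404 and 309 CPM, the deubiquitinase USP44 at 242 and 258 CPM and ZFP42, also called REX1, at 183 and 211 CPM. SALL1, a paralog of SALL4, stood at 102 and 122 CPM and UTF1, a chromatin factor, at 43.7 and 68.2 CPM. FOXD3, a forkhead repressor, stood at 22.6 and 34.2 CPM and GDF3, a ligand of the TGF-beta family and the lowest member, at 23.0 and 13.9 CPM.

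**Figure D3:**
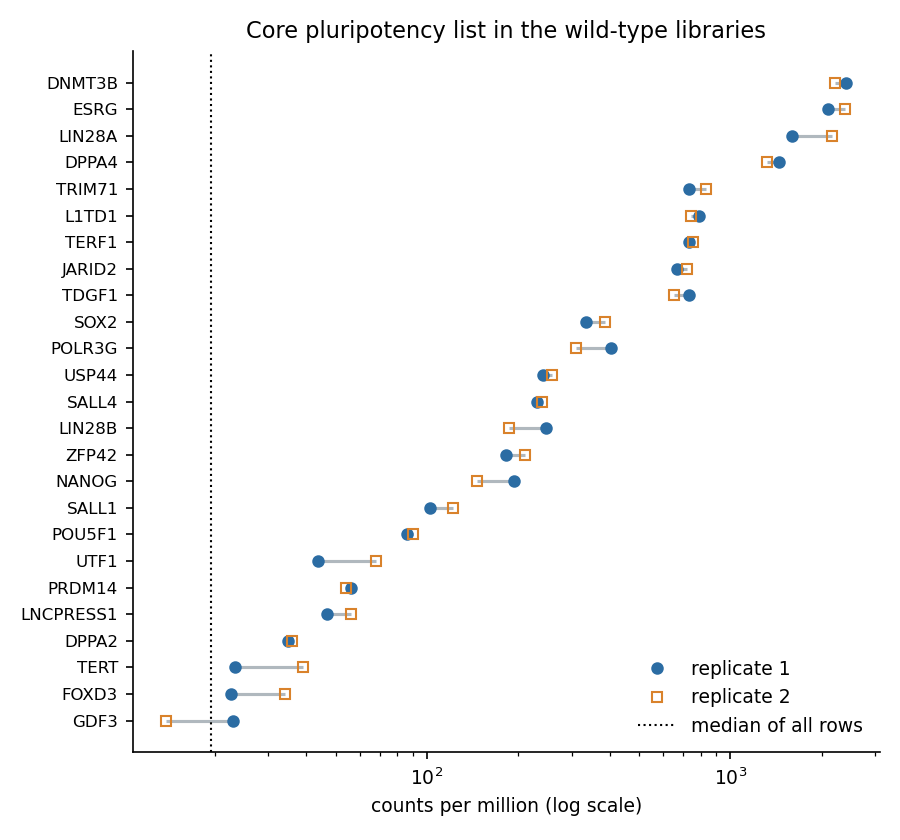
CPM (log scale) of the 25 genes of the core pluripotency list in both wild-type libraries, ordered by mean, with the median of all rows as a dotted line (19.4 CPM). Every mean but that of GDF3 (18.4 CPM) lies above the line, and DNMT3B, ESRG and LIN28A stand highest.

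Genes of the primed state were counted at higher levels than genes of the naive state. Of 20 primed genes, 19 had a row and 12 of these were high, or 63.2% where 13.8% of all rows were. The primed median was 176 CPM over the means of the libraries, and 150 and 185 CPM within them. Of 20 naive genes, 10 had a row, 0 were high and 2 were near absent, where 7.15% of all rows were near absent. The naive median was 4.61 CPM over the means of the libraries, but 3.44 and 3.25 CPM within them. PODXL, CD24, a surface glycoprotein, and SALL2 led the primed list, with CD24 at 1735 and 1923 CPM and SALL2 at 422 and 523 CPM. THY1, the surface antigen CD90, stood at 412 and 479.7 CPM and FGF2, a ligand that maintains the primed state, at 359 and 263 CPM. OTX2, a homeobox factor of the primed epiblast, was low at 12.4 and 12.3 CPM. Of naive genes, TFCP2L1 stood highest at 25.1 and 19.5 CPM, followed by KLF5 at 9.95 ± 2.88 CPM (SD, n = 2) and TBX3 at 9.73 and 2.75 CPM. ESRRB and CD70 were near absent, at 0.926 and 1.05 CPM for ESRRB and at 0.775 and 0.917 CPM for CD70. KLF17, ARGFX, DNMT3L and KHDC3L, genes of the naive state, had no row.

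Genes of the earlier 8-cell-like state were nearly all without a row, 16 of 18, among them ZSCAN4, LEUTX, DUXA and TPRX1. CCNA1, a cyclin, stood at 12.8 and 10.0 CPM and SLC34A2, a phosphate transporter, at 1.61 and 0.760 CPM. Over all RefSeq protein-coding symbols, 65.3% had a row.

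Members of the FGF and Nodal pathways all had a row, 28 of 28, against 65.3% of protein-coding symbols. High were 9 of them, or 32.1% where 13.8% of all rows were. TDGF1, FGFR1 and FGF2 led. The receptor FGFR1 stood at 259 and 428 CPM, and the ligands FGF4 and FGF8 at 17.1 and 17.4 CPM for FGF4 and at 5.95 and 3.46 CPM for FGF8. NODAL itself stood at 52.7 and 14.8 CPM and its antagonists LEFTY1 and LEFTY2 at 11.7 and 9.22 CPM for LEFTY1 and at 14.3 and 5.76 CPM for LEFTY2. NODAL and LEFTY2 were among 5 members that differed by 2-fold or more between the libraries. The others were FGF17, SMAD7 and INHBA. The share apart was 5.79% of all rows, 1.62% from 10 to 100 CPM and 11.4% from 1 to 10 CPM.

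Genes of epithelial junctions were counted at high levels. Of 22 members, 21 had a row and 11 of these were high, or 52.4% where 13.8% of all rows were. ITGB1, an integrin chain that anchors cells to matrix, CDH1, the junction protein E-cadherin, and KRT8, a simple epithelial keratin, led at 761 and 459 CPM for ITGB1, at 552 and 487 CPM for CDH1 and at 398 and 572 CPM for KRT8. CLDN6, a tight-junction claudin of embryonic cells, stood at 433 and 466 CPM and EPCAM, an epithelial adhesion molecule, at 178 and 178 CPM. CDH2, the cadherin of neural and mesenchymal cells, stood at 97.7 and 51.8 CPM. OCLN, a tight-junction protein, was the only member 2-fold or more apart, at 4.61 and 2.28 CPM.

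All 20 genes of the microRNA pathway list had a row, against 65.3% of protein-coding symbols, and the lowest mean was 11.8 CPM. High were 9 of them, or 45% where 13.8% of all rows were. DICER1, which the other cells of the series carry mutated, stood at 166 and 129 CPM, and DROSHA, the nuclease of the first cut, at 132 and 129 CPM. AGO2 stood at 214 and 227 CPM, AGO1 at 167 and 155 CPM and the lower Argonaute rows AGO3 and AGO4 at 39.6 and 37.7 CPM for AGO3 and at 40.4 and 39.1 CPM for AGO4. CNOT1, the scaffold of the deadenylase complex, stood at 554 and 419 CPM and DDX6, a helicase of decay, at 193 and 279 CPM. Mature microRNAs themselves had no rows of their own. The 9 hairpin rows took 1161 and 917 counts, while 29 rows named as microRNA host genes took 0.0810% of the counts.

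Most of the host gene counts lay in MIR302CHG, the noncoding host of the miR-302 and miR-367 cluster, at 612 and 539 CPM. MIR17HG, host of the miR-17 to miR-92a cluster, stood at 16.2 and 24.0 CPM. The RefSeq span of MIR302CHG (chr4:112646720-112650051, minus strand, GRCh38.p14) holds the hairpins of 5 microRNAs. Their 3p arms are shown since this host is the third most counted long noncoding row, with the seed (bases 2 to 8) in capitals.
hsa-miR-302a-3p: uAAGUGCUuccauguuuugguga
hsa-miR-302b-3p: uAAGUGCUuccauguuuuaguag
hsa-miR-302c-3p: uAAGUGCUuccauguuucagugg
hsa-miR-302d-3p: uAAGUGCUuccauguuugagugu
hsa-miR-367-3p: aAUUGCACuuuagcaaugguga
hsa-miR-92a-3p: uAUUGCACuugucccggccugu
hsa-miR-17-5p: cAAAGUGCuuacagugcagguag

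The 4 miR-302 arms share the seed AAGUGCU. The seed of miR-367, AUUGCAC, is that of miR-92a-3p in MIR17HG, whose miR-17-5p carries AAAGUGC. None of these hairpins had a row, so the values are those of the hosts alone.

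Markers of differentiated lineages were mostly under 10 CPM or without a row. The 11 lineage lists hold 201 genes, of which 84 had a row, or 41.8% against 65.3% of protein-coding symbols. Of those with a row, 45 were under 10 CPM, or 53.6% against 37.9% of all rows, and the median was 7.12 CPM against 19.4 CPM. High members numbered 11, a share of 13.1% that is near the 13.8% of all rows. Near absent were 3, or 3.57% where all rows had 7.15%. The share with a row was lowest for blood and endothelium, 3 of 23, and highest for fibroblast and stromal genes, 15 of 22. In bulk libraries, a few cells with much of an RNA and many cells with little cannot be told apart.

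**Figure D4:**
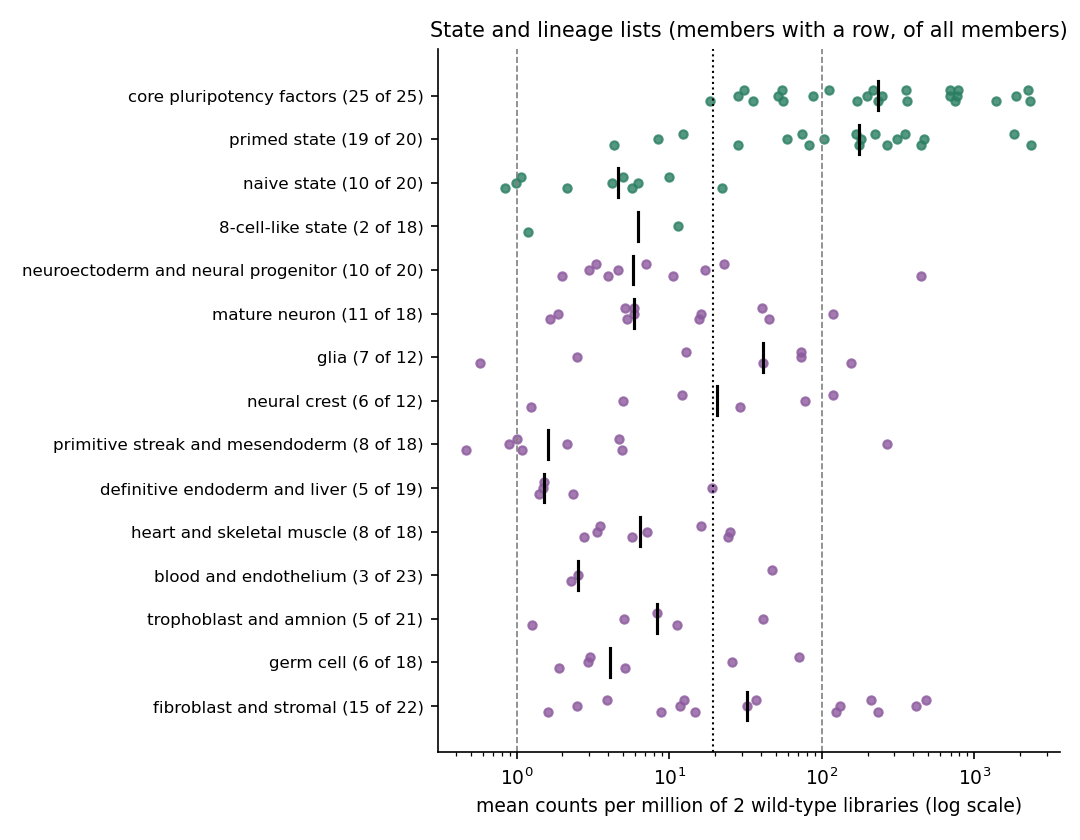
Mean CPM (log scale) of the members with a row in 4 state lists (green) and 11 lineage lists (purple), with the list median as a bar. Dashed lines stand at 1 and 100 CPM and the dotted line at the median of all rows (19.4 CPM). Core pluripotency and primed genes lie furthest to the right, and among lineage lists only glia, neural crest and stromal medians lie above the dotted line.

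Of the neuroectoderm and progenitor list, 10 of 20 genes had a row. PAX6, SOX1, LHX2 and SIX3, which specify neural plate and forebrain, were among those without one. NES, an intermediate filament that stem cells also express, stood at 462 and 439.6 CPM and was the only high member. SOX3, a factor of neural progenitors, followed at 21.9 and 23.9 CPM, ZIC1, a factor of the neural plate, at 17.6 and 16.7 CPM and SOX21 at 11.4 and 9.64 CPM. The list's median was 6.40 and 5.57 CPM. Among mature neuron genes the only high one was SYT1, a calcium sensor of synaptic vesicles, at 135 and 103 CPM, with the neurofilaments NEFL and NEFM at 54.2 and 35.8 CPM for NEFL and at 35.3 and 45.6 CPM for NEFM. GAD1, TH, CHAT and SLC17A6, which define transmitter types, had no row.

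The glial list had 7 of 12 members with a row. CNP, a myelin enzyme, stood at 68.7 and 78.3 CPM and the glutamate transporter SLC1A3 at 59.5 and 86.1 CPM. GFAP, the astrocyte filament, was near absent at 0.661 and 0.498 CPM, and OLIG1, OLIG2, MOG and MAG had no row. In the neural crest list the receptor ERBB3 stood at 113 and 123 CPM, ETS1 at 105 and 51.9 CPM and NGFR at 27.7 and 30.7 CPM. ETS1 and MITF, at 1.78 and 0.707 CPM, were 2-fold or more apart between the libraries. TFAP2A, PAX3, PAX7 and SNAI2, factors that define the crest, had no row, while SOX10 stood at 4.40 and 5.55 CPM.

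Gastrulation markers were mostly low or without a row. TBXT, EOMES, GSC and MSGN1, factors of the primitive streak, were among 10 of 18 without a row. KDR, a receptor for VEGF, was the exception at 252 and 282 CPM, followed by TBX6 at 4.23 and 5.63 CPM and FGF8. MESP1, MESP2 and PDGFRA were lowest, at 0.283 and 0.655 CPM for MESP1, at 0.567 and 1.23 CPM for MESP2 and at 1.13 and 0.891 CPM for PDGFRA. Of the 8 members with a row, 4 were 2-fold or more apart, namely MIXL1, MESP1, MESP2 and FGF17. Over all rows the share apart was 5.79%, with 11.4% from 1 to 10 CPM and 19.7% under 1 CPM. The median of the list was 2.07 and 1.47 CPM.

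No marker of endoderm, muscle or blood was high. SOX17, FOXA1, FOXA2, GATA4, GATA6 and ALB were among 14 of 19 endoderm and liver genes without a row. FOXA3 stood highest at 18.9 and 19.1 CPM, AFP at 3.95 and 0.760 CPM and CXCR4 at 2.12 and 0.917 CPM. AFP, CXCR4 and HHEX, which is 3 of the 5 members with a row, were 2-fold or more apart. The share apart was 5.79% of all rows and 11.4% of rows from 1 to 10 CPM. In the muscle list the giant sarcomere protein TTN stood at 25.2 and 25.0 CPM, the skeletal actin ACTA1 at 27.2 and 21.4 CPM and the cardiac actin ACTC1 at 21.8 and 10.5 CPM. NKX2-5, MYOD1, MYF5 and TBX5, which specify heart and muscle, had no row. Of 23 blood and endothelial genes, 3 had a row. TEK, the angiopoietin receptor, stood at 66.3 and 27.8 CPM and was 2-fold or more apart, and VWF, a clotting factor carrier, stood at 2.42 and 2.67 CPM. No globin of the list, nor PTPRC, PECAM1 or CD34, had a row.

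Extraembryonic and germ cell genes followed the same pattern. In the trophoblast and amnion list 5 of 21 genes had a row, led by TFAP2C, a factor that stem cells also use, at 39.3 and 43.0 CPM, GABRP at 8.09 and 14.4 CPM and KRT7 at 6.92 and 9.75 CPM. CDX2, GATA3, TP63, CGA and ISL1 had no row. Of 18 germ cell genes, 6 had a row. KIT, a receptor that stem cells also carry, stood at 74.4 and 68.5 CPM, PIWIL2, a piRNA-binding protein, at 25.8 and 26.2 CPM and TDRD1 at 5.91 and 4.43 CPM. DDX4, NANOS3 and PRDM1, which mark primordial germ cells, had no row.

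Stromal genes were the lineage list with the most high members, 6 of 15 with a row, or 40% where 13.8% of all rows were. FN1, a matrix protein, stood at 495 and 478 CPM, the matrix-binding SPARC at 467 and 367 CPM and the collagen chain COL1A1 at 279 and 188 CPM. VIM, an intermediate filament, stood at 250.3 and 169 CPM, COL1A2 at 137 and 126 CPM and TAGLN, an actin-binding protein of smooth muscle, at 183 and 64.6 CPM. Members without a row were LUM, DCN, COL3A1, TWIST1, TWIST2, PRRX1 and FAP. Lower members with one included the matrix protease MMP2 at 40.5 and 33.9 CPM, the collagen chain COL5A1 at 25.0 and 40.2 CPM, the receptor PDGFRB at 14.8 ± 1.74 CPM (SD, n = 2) and the fibrillin FBN1 at 16.6 and 7.07 CPM. The summed level of the list was 1944 and 1512 CPM, and 13 of the 15 members were higher in replicate 1, against 43.8% of all rows. Matrix and adhesion genes as a class took 1.40% and 1.26%, with VCAN, a matrix proteoglycan, at 863 and 538 CPM and CTNNA1, a catenin of adherens junctions, at 576 and 539 CPM. Whether other cells in the cultures add to these counts was not tested.

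Across 15 families of developmental transcription factors, 97 of 224 RefSeq genes had a row (43.3%), against 65.3% of protein-coding symbols. High were 12 of the 97, where 13.8% of all rows were. HOX genes, which pattern the body axis, were the sparsest, with 2 of 39. HOXB1 stood at 0.926 and 1.02 CPM and HOXB2 at 0.926 and 0.812 CPM, both near absent. PAX, NKX, TBX and GATA families had rows for 2 of 9, 3 of 14, 4 of 14 and 2 of 6 genes. Their most counted members were PAX5 at 37.3 and 35.4 CPM, NKX1-2 at 49.4 and 63.1 CPM, TBX1 at 12.8 and 15.3 CPM and GATA5 at 2.83 and 5.32 CPM.

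ZIC and ETV families had a row for every gene, 5 and 7. ZIC2 stood at 244 and 295 CPM and ETV4, an ETS factor downstream of FGF, at 187 and 259.7 CPM. SOX4 at 416 and 429 CPM, FOXN3 at 344 and 293 CPM and POU2F1 at 171 and 187 CPM led their families by counts. In each of the next 5 families no member was high. LHX4 stood at 26.9 and 4.82 CPM, SIX4 at 82.1 and 69.4 CPM, IRX2 at 63.5 and 96.8 CPM, HES3 at 29.8 and 41.4 CPM and KLF16 at 48.4 and 62.6 CPM. Some families restricted to specialised tissues gave the other end of the range. Olfactory receptors had 1 row for 392 genes, OR52A1 at 2.06 and 2.54 CPM, and 94 keratin-associated proteins and 45 defensins had 0 rows. Other such families had more, with 18 of 56 cytochrome P450 genes, 10 of 42 chemokines and 6 of 35 MAGE genes. Interleukins had 5 of 35, HLA genes 2 of 21 and keratins 5 of 55. Zinc finger genes of the ZNF series had 445 of 517.

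**Figure D5:**
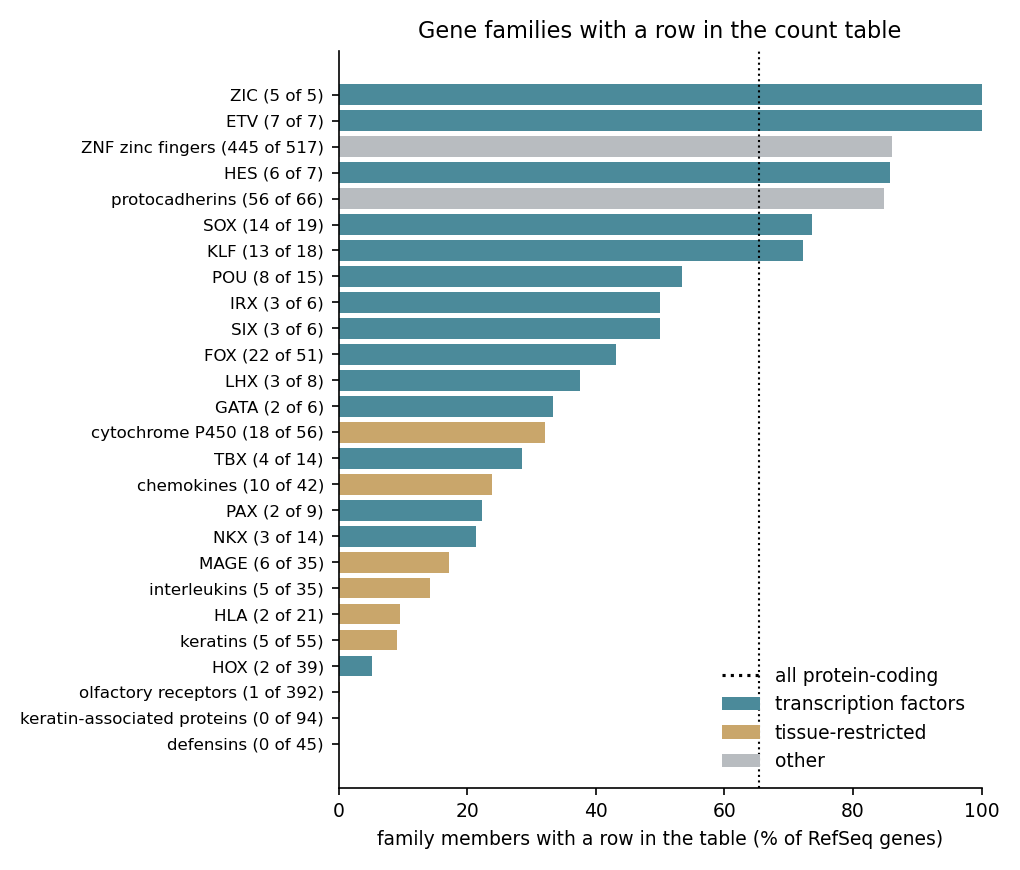
Share of RefSeq protein-coding genes of each family with a row in the count table (percent), with counts in parentheses and the share over all protein-coding symbols (65.3%) as a dotted line. ZIC and ETV genes are complete, HOX genes stand at 5.13%, and olfactory receptors, keratin-associated proteins and defensins are at or near 0.

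Some of these factors have no intron, and for them the RefSeq gene length allows a ranking per kilobase. SOX2 (2512 bases) came first of 16 such genes, at 133 and 154 CPM per kilobase. SOX4, which had more counts, has 4869 bases and stood at 85.4 and 88.2 CPM per kilobase. SOX11, a neural and embryonic factor of 9002 bases, stood at 15.5 and 24.9 and SOX12 at 13.3 and 17.8. SOX3 and FOXD3, at 10.5 and 11.5 and at 8.83 and 13.3 CPM per kilobase, did not separate. SOX2 therefore lay above SOX4 per kilobase in both libraries, the reverse of their CPM. The linker histone H1-10 stood at 88.7 and 135 CPM per kilobase, and the noncoding RNA NORAD at 66.2 and 60.7. JUN and JUNB, immediate early factors, stood at 10.2 and 6.25 and at 2.84 and 3.31.

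Most cell cycle genes were high, and fewer members of a mixed list of cell cycle brakes and p53 targets were. All 25 cell cycle and mitosis genes had a row and 21 were high (84%), with a median of 158 and 155 CPM. TOP2A, which untangles DNA before division, stood at 653 and 675 CPM, the kinetochore protein CENPF at 323 and 453 CPM and MKI67, a proliferation marker, at 295 and 348 CPM. CCND2, a D-type cyclin of the first gap phase, stood at 182 and 386 CPM and was the member 2-fold or more apart. Of 22 brakes and p53 targets, 17 had a row and 4 were high, or 23.5% where 13.8% of all rows were. Their median was 52.2 CPM against 19.4 CPM over all rows. RRM2B stood at 228 and 171 CPM, PMAIP1, a BH3-only protein that readies cells for apoptosis, at 221 and 136 CPM and BAX at 125 and 129.5 CPM. MDM2 was the other high member, at 152 and 100.4 CPM, and no CDK inhibitor was high by its mean. The CDK inhibitor CDKN1A stood at 109.9 and 45.7 CPM, 2-fold or more apart, and CDKN2A, CDKN2B, CDKN2C and CDKN1C had no row. In the wider class of cell cycle symbols and kinesins, 1.27% and 1.29% of the counts, the most counted rows were CCNG1, a p53-induced cyclin, at 696 and 548 CPM, the neuronal motor KIF1A at 429 and 399.7 CPM and the microtubule polymerase CKAP5 at 395 and 405 CPM. In all, 13 of the 17 rows of the list of brakes and p53 targets were higher in replicate 1, against 43.8% of all rows.

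Glycolysis genes held a median of 152 and 177 CPM. High were 15 of 18 rows, or 83.3% where 13.8% of all rows were. ENO1 and PKM, late enzymes of the path, stood at 1159 and 1357 CPM for ENO1 and at 872 and 1154 CPM for PKM. LDHA, which makes lactate, had no row and ALDOA, an aldolase, stood at 15.9 and 19.3 CPM. All but 3 of the 18 were higher in replicate 2, where 56.2% of all rows were. The serine and one-carbon list had 9 of 13 rows high, or 69.2% against the same 13.8%. PHGDH, the first enzyme of serine synthesis, stood at 472 and 572 CPM, AHCY at 379 and 413 CPM and PSAT1 at 392 and 299.9 CPM. AMT, of the glycine cleavage system, was near absent at 0.642 and 0.891 CPM. Nuclear-encoded respiratory chain genes took 0.813% and 0.857%, led by the ATP synthase subunits ATP5F1B and ATP5F1A at 902 and 836 CPM for ATP5F1B and at 796 and 815 CPM for ATP5F1A and COX7C at 309 and 343 CPM.

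Most genes of cholesterol synthesis were higher in replicate 1. Of its 20 genes, all with a row, 18 were higher in replicate 1, against 43.8% of all rows, and the summed level was 3465 against 2204 CPM. HMGCS1, an early enzyme of the path, stood at 679 and 366 CPM. IDI1, an isomerase of the path, stood at 160.2 and 74.9 CPM and was 2-fold or more apart.

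Of genes with a row, 5 of 17 in the list of unfolded protein and integrated stress responses were high, 2 of 14 immediate early genes and 0 of 10 interferon and inflammation genes, where 13.8% of all rows were. Chaperones of the endoplasmic reticulum, HSP90B1, CALR and HSPA5, stood at 1363 and 1126 CPM for HSP90B1, at 848 and 757 CPM for CALR and at 688 and 424 CPM for HSPA5. The other high members of the stress list were PDIA4, a disulfide isomerase, at 503 and 396 CPM and ATF4, the transcription factor of the integrated stress response, at 353 and 377 CPM. DDIT3, a factor induced in unresolved stress, stood at 2.10 and 1.41 CPM. Of immediate early genes MYC led at 138 and 129.7 CPM, then IER2 at 105 ± 14.5 CPM (SD, n = 2) and JUND at 70.4 and 72.3 CPM, while FOS stood at 4.70 and 6.11 CPM and EGR1 at 1.98 and 4.06 CPM. EGR2 was near absent at 0.718 and 0.943 CPM. Of interferon and inflammation genes, 10 of 18 had a row. ISG15, a ubiquitin-like protein, stood at 11.8 and 14.9 CPM and NFKBIA, an inhibitor of NF-kappaB, at 10.7 and 12.9 CPM. TNF, IL6 and IL1B had no row, and CCL2 was near absent at 0.945 and 0.891 CPM.

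Protein-coding rows took 89.1% and 89.6% of the counts by RefSeq type, not counting the mitochondrial rows, and long noncoding rows 1.42% and 1.46%. SNHG14, the long noncoding RNA of the imprinted Prader-Willi region, was the most counted of 940 at 2548 and 2042 CPM. Its RefSeq span overlaps those of 98 other genes, and how reads over such overlaps were counted was not tested. LINC01108, an intergenic RNA, and GAS5, a snoRNA host, stood at 551 and 427 CPM for LINC01108 and at 414 and 338 CPM for GAS5. Among imprinted genes with a row, MEST and PEG10 stood at 254 and 228 CPM for MEST and at 243 and 195 CPM for PEG10. H19, MEG3, NDN and PEG3 had no row. The most counted pseudogenes were MTATP6P1 at 782 and 727 CPM, EEF1A1P5 at 523 and 377 CPM, RPS2P5 at 326 and 351 CPM, MTND2P28 at 177 and 168 CPM and PPIAP22 at 173 and 171 CPM. Each resembles a highly counted parent, so reads may have been split between copies and these values are uncertain.

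RNAs known to lack a poly(A) tail were mostly sparse. Of 69 clustered histone genes, whose messages end in a stem-loop, 12 had a row, at 0.729 to 3.46 CPM and 21.3 CPM in sum. The other 17 histone rows summed to 2005 CPM, with the variants H3-3B at 422 and 463 CPM, H2AZ1 at 423 and 387 CPM and H3-3A at 365 and 405 CPM. RN7SK, RPPH1, TERC and the U1, U2, U4, U5 and U6 RNAs of the list had no row. RN7SL1, the RNA of the signal recognition particle, stood at 12.2 and 94.4 CPM and thus differed widely between the libraries. By its mean it led the class of small noncoding rows, which also takes in antisense RNAs that need not be small. In replicate 1 it lay below the antisense RNA BACE1-AS at 14.9 and 22.1 CPM and MIR1244-2 at 13.5 and 12.8 CPM. RMRP stood at 1.55 and 2.78 CPM and SNORD3A at 1.47 and 2.75 CPM. The nuclear RNA MALAT1, whose end is a triple helix and not a poly(A) tail, stood at 167 and 282 CPM, and the list's leaders were NORAD at 354 and 325 CPM and OIP5-AS1 at 342 and 283 CPM. Why these rows are few was not tested.

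Base content around the start sites was also described by level. A window of 300 bases, 250 before and 50 after the RefSeq start, was available for 11412 rows. The dinucleotide CG was counted on the printed strand, where it reads the same on both. High rows held a median of 28 (quartiles 21 and 36), rows from 1 to 100 CPM 26 (17 and 34), as did all rows with a window (18 and 34), near absent rows 19 (7 and 30) and 5151 protein-coding genes without a row 7 (3 and 19). The lineage markers without a row, 76 with a window, held 11, and all windows 14. The motif TATAAA between 40 and 16 bases before the start, on the sense strand, was in 5.56% of rows at 1000 CPM or more (3 of 54), 1.81% of high rows, 2.07% of near absent rows, 7.78% of protein-coding genes without a row and 2.54% of all windows. Among classes it was most frequent in histones, 9 of 22.

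The spread between the wild-type libraries was small for high rows and large for low ones. Of all rows, 297 (1.83%) were 2-fold or more higher in replicate 1 and 641 (3.96%) in replicate 2. With TMM factors the counts were 336 and 558. With 1 library on each side this is a count without a test. The share apart was 0.626% at 100 CPM or more, 1.62% from 10 to 100 CPM, 11.4% from 1 to 10 CPM and 19.7% under 1 CPM. Pearson's r of log2 CPM between the libraries was 0.981 across genes, which are not independent replicates. NDUFS1, a complex I subunit, and FBL, a nucleolar methyltransferase, were far apart, at 10.4 and 2.49 CPM for NDUFS1 and at 3.12 and 21.1 CPM for FBL. Levels near 1 CPM, such as those of MESP1, CD70 or HOXB2, are therefore known less closely than those of DNMT3B or LIN28A.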

How the data were processed

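Counts of reads per gene in 6 iCLIP libraries of H1 cells were deposited by the authors as whole numbers without normalization, and the 2 wild-type columns were used. The build is hg38, per the submitters' processing notes. For the aligner, counting tool, annotation, strandedness and use of molecular identifiers, the sources used here name nothing, so overlapping genes and near-identical copies are uncertain; 59.8% of rows with a RefSeq span overlap another gene's span. Of 16199 rows, 14750 matched a RefSeq symbol (GRCh38.p14), 1243 carry only an Ensembl identifier and 206 another name.

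CPM used library totals, and shares are percent of counts. The planned ranking of all genes per kilobase was not run, since the reference gives gene spans with introns; it was done for mitochondrial and intronless genes. Classes followed symbol patterns and gene lists had 28 sets. Named were the 20 most counted rows, the whole pluripotency list, the 3 highest and up to 3 near absent members of each other list, the 3 highest rows of each class, the highest member of each factor family and the 5 highest long noncoding and pseudogene rows; other genes, and the list of intronless genes, were chosen after values were seen. Some genes that the rule names are not reported here. Members and lists were chosen with earlier results of these data known. Alternatives were TMM, RLE and upper-quartile factors (edgeR 4.0.16, R 4.3.3), other denominators, a filter of 20 counts, and each library left out. Analysis used Python 3.11.15, pandas 2.3.3 and scipy 1.17.1, and the level calculations were tested on simulated counts.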

Additional observations from a re-analysis of the deposited data

How the results depend on the processing

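Counts of rows by level stayed within 1.5 times of the reported ones under TMM, RLE and upper-quartile factors, a total without mitochondrial rows and the filter of 20 counts in both libraries, which 16019 rows passed. With 1 library left out, high rows numbered 2208 to 2252 and rows under 1 CPM 1075 to 1356. Counting only protein-coding rows, which leaves out the ribosomal RNAs, the mitochondrial share was 6.54%. The share of RNA-processing proteins was 3.59% without mitochondrial rows and 3.45% of protein-coding counts, both larger by construction. The pluripotency median, 235 CPM over the means, was 252 CPM with a total without mitochondrial rows, and 239 to 242 CPM with a library left out. Of 108 medians of the other 27 lists under 4 scalings, 99 moved by less than the spread between libraries, and their ratios to the reported values ran from 0.988 to 1.08. The factors were close to 1 (TMM 0.982 for replicate 1 and 1.02 for replicate 2), and leaving out mitochondrial rows raises every CPM. Neither could move these medians far, so the count does not test them. Setting members without a row to 0 CPM brought 8 of the 27 medians to 0. Keeping pseudogene and long noncoding rows apart from the classes was added after seeing the data. Shares per kilobase, list medians per kilobase and coding lengths were not run, for want of transcript lengths. No paired analysis was possible because only the wild-type group was described and no test was made. Depth limits the rows near 1 CPM.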

Other observations

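Some genes of otherwise high pathways were low or had no row. TJP1, a scaffold of tight junctions, stood at 4.99 and 8.44 CPM where CDH1 stood at 552 and 487 CPM. FDFT1 and CYP51A1, enzymes of cholesterol synthesis, stood at 2.93 and 2.15 CPM for FDFT1 and at 6.69 and 3.64 CPM for CYP51A1, the lowest of their list. TNRC6A, an Argonaute partner, stood at 15.3 and 8.31 CPM, while TNRC6B and TNRC6C stood at 62.5 and 88.6 CPM for TNRC6B and at 62.4 and 96.3 CPM for TNRC6C. TUBB3, a neuronal tubulin, stood at 4.55 and 4.64 CPM. RefSeq spans of TJP1, FDFT1, CYP51A1 and TNRC6A overlap at least 1 other gene's span, that of TUBB3 none. The higher genes CDH1, TNRC6B and TNRC6C overlap others as well, as do 59.8% of rows with a RefSeq span. How reads over such overlaps were counted was not tested, and gene lengths were not set off.

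Rows with only an Ensembl identifier, 1243 in number, took 0.809% and 0.952% of the counts. High were 12 of them, where 13.8% of all rows were.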
